A study of Mus musculus with 24 samples.

Results

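The genes described here are 33 genes of the oligodendrocyte lineage and of myelin, taken from a list of gene names with no threshold on a value measured here, out of 51826 genes counted in RNA from the dorsal hippocampus. They are 11 myelin proteins (*Mbp*, *Mog*, *Mag*, *Mobp*, *Cnp*, *Mal*, *Cldn11*, *Opalin*, *Ermn*, *Tspan2* and *Bcas1*), 5 enzymes of lipid and small-molecule metabolism (*Ugt8a*, *Fa2h*, *Aspa*, *Qdpr* and *Enpp6*), 6 transcription factors (*Myrf*, *Sox10*, *Olig1*, *Olig2*, *Nkx6-2* and *Nkx2-2*), 5 genes of junctions, receptors and the cell surface (*Gjb1*, *Gpr37*, *Lpar1*, *Gpr17* and *Hapln2*), 2 progenitor markers (*Pdgfra* and *Cspg4*) and 4 other genes of mature oligodendrocytes (*Trf*, *Cryab*, *Plekhh1* and *Ppp1r14a*). All 33 were found in the count table and all 33 passed the filter on low counts in every comparison.

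RNA was measured in 24 libraries from mice aged 2 to 4 months on a C57BL/6J background, either CBP KIX/KIX mice or their wildtype (WT) littermates. The study reports both male and female mice over its experiments, and sex entered no fit here. CBP KIX/KIX mice carry point mutations in the KIX domain of the coactivator CBP in every cell of the body, so that a difference in hippocampal RNA cannot be assigned to one cell type, and the amount of *Crebbp* RNA cannot check the genotype. RNA-Seq 1 used total RNA after ribosomal depletion and holds 3 WT homecage, 3 WT and 3 CBP KIX/KIX mice, the last 2 groups taken an hour after the last session of Morris water maze (MWM) training. RNA-Seq 2 was made from polyA-selected RNA and holds 3 WT homecage, 4 WT after contextual fear conditioning (CFC), 4 CBP KIX/KIX after CFC and 4 CBP KIX/KIX homecage mice, the trained ones again taken an hour later. Homecage mice were not trained, and the study reports handling for the homecage controls of fear conditioning. Library type, training task and run change together between the experiments and cannot be told apart.

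Oligodendrocytes wrap axons of the central nervous system in myelin. They arise from progenitors that carry the growth factor receptor Pdgfra and the proteoglycan Cspg4, pass through a committed stage marked by Gpr17 and a newly formed stage marked by Enpp6 and Bcas1, and then switch on myelin genes under Sox10, Olig2 and Myrf. New myelin is known to be formed in adult mice during learning, and the hippocampus holds oligodendrocytes in its white matter borders and, more sparsely, among its neurons.

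Libraries of RNA-Seq 1 held 38174044 to 65709282 counts in total, and those of RNA-Seq 2 held 15385836 to 46056290. Within RNA-Seq 2, replicates 1 and 2 of each group held 30143949 counts or more, and replicates 3 and 4 held 20568337 or fewer. WT homecage mice of RNA-Seq 2 have no replicate 4. The labels give no reason for this split, and its part in the results was not tested. The lowest count of any of the 33 genes in any library was 53 in RNA-Seq 1 and 44 in RNA-Seq 2, against a floor of 3 counts that is at most 0.195 CPM (counts scaled to a fixed library size), so that all 33 were detected in all 24 libraries. Together they held 0.286 to 0.461% of the counts in RNA-Seq 1 and 0.443 to 0.596% in RNA-Seq 2. Genes of the choroid plexus, a secretory tissue beside the hippocampus, varied more than the 33 genes between libraries of one group. In the 4 WT CFC mice, for example, 9 such genes summed to 38.9 to 4199.85 CPM, while the 33 genes summed to 4513.73 to 5292.78 CPM. In bulk RNA, fewer cells of a type and less RNA per cell cannot be told apart, which holds for every result below.

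CBP is recruited by the factor CREB, which binds the cAMP response element, and Sox10 and Olig2 bind the SOX core and the E-box. The 250 bases before the RefSeq start of transcription (GRCm38.p6) were therefore searched on both strands for TGACGTCA (the full cAMP response element), TGACG (its core, which every full element also holds), ACAAT (the SOX core) and CANNTG (the E-box). Promoters were matched by symbol for 24 of the 33 genes, and 32 start sites were searched. Any promoter of *Mbp* or *Gpr17* was left out of the search, so that the genes searched may be fewer than the 24 matched. The counts below say nothing about these genes, and the set of all promoters had no such omission. The full element was in 0 of the 32 member promoters searched, against 1.55% of all 32851 promoters of that length. The TGACG core was in 1 gene, *Pdgfra*, against 17.8% of all promoters. ACAAT was in 11 of the 32 member promoters, belonging to 9 genes, against 27.7% of all promoters, and CANNTG in 21 of the 32, belonging to 16 genes, against 66.2%. These are counts of letters and not of bound sites.

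The promoters of the 2 genes called different between genotypes after learning are shown, read 5′ to 3′ on the strand of the gene, with the matched letters in capitals. The *Enpp6* window lies on the plus strand at chr8:46986637-46986886 and holds ACAAT from base 219 before the start. The *Qdpr* window lies on the minus strand at chr5:45450230-45450479 and holds 1 E-box, CAGATG, from base 217 before the start.
Enpp6: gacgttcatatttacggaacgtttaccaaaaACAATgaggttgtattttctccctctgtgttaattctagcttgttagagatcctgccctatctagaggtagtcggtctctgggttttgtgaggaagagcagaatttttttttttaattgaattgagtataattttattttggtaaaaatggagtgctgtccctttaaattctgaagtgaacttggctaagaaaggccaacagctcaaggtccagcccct
Qdpr: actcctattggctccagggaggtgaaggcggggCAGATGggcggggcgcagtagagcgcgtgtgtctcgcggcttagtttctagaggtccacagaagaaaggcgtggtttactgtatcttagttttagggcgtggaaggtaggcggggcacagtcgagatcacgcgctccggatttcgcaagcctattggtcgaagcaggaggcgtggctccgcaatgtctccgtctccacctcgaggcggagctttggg

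Levels were compared between genes as CPM per kb of exon. In the WT homecage mice of both experiments *Mbp*, which compacts the myelin sheath, had the highest level, 215 ± 26.1 CPM per kb (SD, n = 3) in RNA-Seq 1 and 242 ± 31.9 (SD, n = 3) in RNA-Seq 2. The next was *Cnp*, an enzyme of uncompacted myelin, with 135 ± 13.5 CPM per kb in RNA-Seq 1, and *Mobp*, a small basic myelin protein, with 94.0 ± 15.9 in RNA-Seq 2. The lowest level in both was that of *Enpp6*, a choline-releasing phosphodiesterase of newly formed oligodendrocytes, with 0.732 ± 0.284 and 1.10 ± 0.0877 CPM per kb. *Nkx2-2*, a transcription factor of the early lineage, lay just above it with 0.908 ± 0.170 and 1.13 ± 0.193 CPM per kb, and the spreads of the lowest pair overlapped in both experiments.

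Within each role the highest level, averaged over the 7 groups, was 226 CPM per kb for *Mbp* among myelin proteins, 54.9 for *Qdpr* among enzymes, 46.4 for *Olig1* among transcription factors, 15.3 for *Gpr37* among junction, receptor and surface genes, 4.60 for *Pdgfra* among progenitor markers and 40.6 for *Cryab*, a small heat shock protein, among the rest. Group means of *Mbp* ran from 196 ± 43.6 CPM per kb in WT MWM mice to 259 ± 22.1 in WT CFC mice, so that all 7 groups lay within a narrow range. *Olig1*, a basic helix-loop-helix factor, ran from 41.3 ± 4.44 CPM per kb in WT MWM mice to 49.4 ± 7.07 in WT homecage mice of RNA-Seq 1. *Gpr37*, an orphan receptor of the mature cell, had 18.2 to 20.7 CPM per kb in the 3 groups of RNA-Seq 1 and, in RNA-Seq 2, 12.2 in WT homecage and 13.4 in WT CFC mice. *Pdgfra* ran from 4.18 to 5.35 CPM per kb over the 7 groups.

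The 2 experiments differed in the level of single genes. From WT homecage mice of RNA-Seq 1 to those of RNA-Seq 2 the log2 CPM of *Cspg4* was lower by a log2 difference of -1.82, that of *Mag*, the adhesion protein facing the axon, of -1.43, that of *Plekhh1* of -1.41, that of *Gjb1*, a connexin, of -1.31 and that of *Trf*, transferrin, of -1.22. *Ermn*, a cytoskeletal protein of late oligodendrocytes, was higher by 1.36, *Aspa*, which splits N-acetylaspartate, by 0.97, and *Opalin* by 0.69. The libraries did not overlap for 8 higher and 12 lower genes of the 33, and overlapped for 13. The share of all genes without overlap is not given here, so that these counts cannot be read as particular to the 33 genes. The median of the 33 differences was 0.00251 and that of all 22408 genes kept was -0.08, so that the whole set had no common shift. The order of levels is therefore given within an experiment only, and this difference between experiments has no test.

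**Figure D1:**
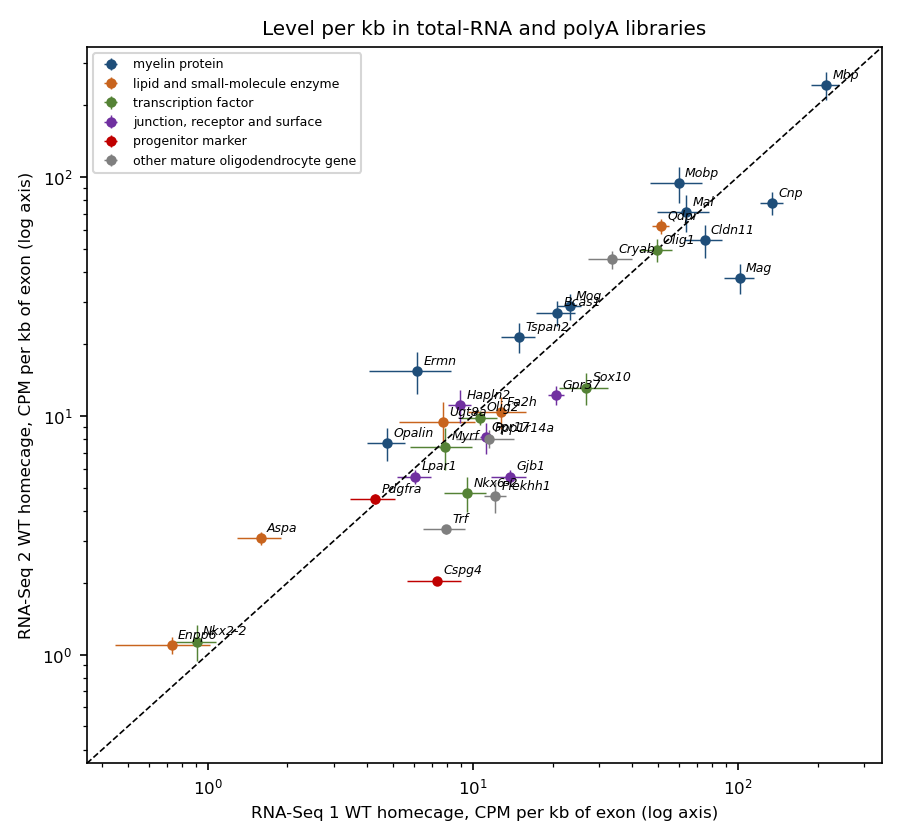
Level of each of the 33 genes in WT homecage mice as CPM per kb of exon in RNA-Seq 1 (x axis) and RNA-Seq 2 (y axis), both on log scales, as means with SD bars (n = 3 each) coloured by role, with the line of equal levels dashed. *Mbp* is highest on both axes, and *Cspg4*, *Mag*, *Plekhh1*, *Gjb1* and *Trf* lie well below the line.

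Most of the 33 genes moved together from library to library. With the mean of each group removed, Pearson's r across the 24 libraries between a gene and the mean of the other 32 was 0.94 for *Mbp*, 0.93 for *Mag*, 0.91 for *Cldn11*, a tight junction protein of myelin, and 0.91 for *Mog*, on the outer face of the sheath. It was lower for transcription factors, from 0.81 for *Nkx6-2* and 0.76 for *Sox10* to 0.58 for *Myrf*, and 0.69 for *Enpp6*. *Gpr17* had 0.26, *Cspg4* -0.05 and *Pdgfra* -0.21, so that the 3 genes of progenitors and committed precursors did not follow the others. *Cspg4* is also made by pericytes. All genes of a library share its dissection and depth, and these values describe the libraries without a test.

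The 22 other oligodendrocyte genes listed for comparison followed the mean of the 33 genes with r = 0.98 over the 24 libraries, while 7 other progenitor genes had r = 0.05, 11 astrocyte genes -0.18, 11 neuronal genes 0.21 and 9 choroid plexus genes -0.18. Among all genes outside the 33, those most like their mean were *Gjc3* (0.93), *Tmem63a* (0.92), *Plekhb1* (0.92), *Litaf* (0.90), *Adamts4* (0.89), *Gatm* (0.89), *Gab1* (0.88), *S1pr5* (0.88), *Tmem88b* (0.88) and *Pde8a* (0.88). Of these 10, 5 were on the comparison list of other oligodendrocyte genes (*Gjc3*, *Tmem63a*, *Adamts4*, *S1pr5* and *Tmem88b*). Genes of the ependyma, which lines the ventricle, had r = 0.54 with the mean of the 33 genes, 0.87 within RNA-Seq 1 and -0.25 within RNA-Seq 2, and genes of thalamus and habenula had 0.69 within RNA-Seq 1 and -2.51e-05 within RNA-Seq 2.

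The mean log2 CPM of the 33 genes, set against the mean of the same experiment, was lowest in replicate 3 of the WT MWM mice (-0.40) and in replicate 3 of the CBP KIX/KIX MWM mice (-0.27). It was highest in replicate 2 of the CBP KIX/KIX MWM mice (0.24) and replicate 1 of the WT homecage mice of RNA-Seq 1 (0.23). The 2 MWM groups held libraries of high and of low content, from -0.40 to 0.12 in WT and from -0.27 to 0.24 in CBP KIX/KIX mice. WT homecage mice of RNA-Seq 1 lay between -0.07 and 0.23, with a median of 0.147 against 0.003 in both MWM groups. In RNA-Seq 2 it lay between -0.21 in replicate 2 of the WT homecage mice and 0.19 in replicate 2 of the CBP KIX/KIX CFC mice, and the 4 groups overlapped. The spread within groups was as wide as any difference between them. In the comparison of genotypes after learning, the 4 factors of unwanted variation that the study's design removes held 53.0% of the residual variance of this mean, and in that of learning in WT mice the 3 factors held 33.2%. The factors took up 4 of 11 and 3 of 10 residual degrees of freedom, and would hold a share of any such mean.

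**Figure D2:**
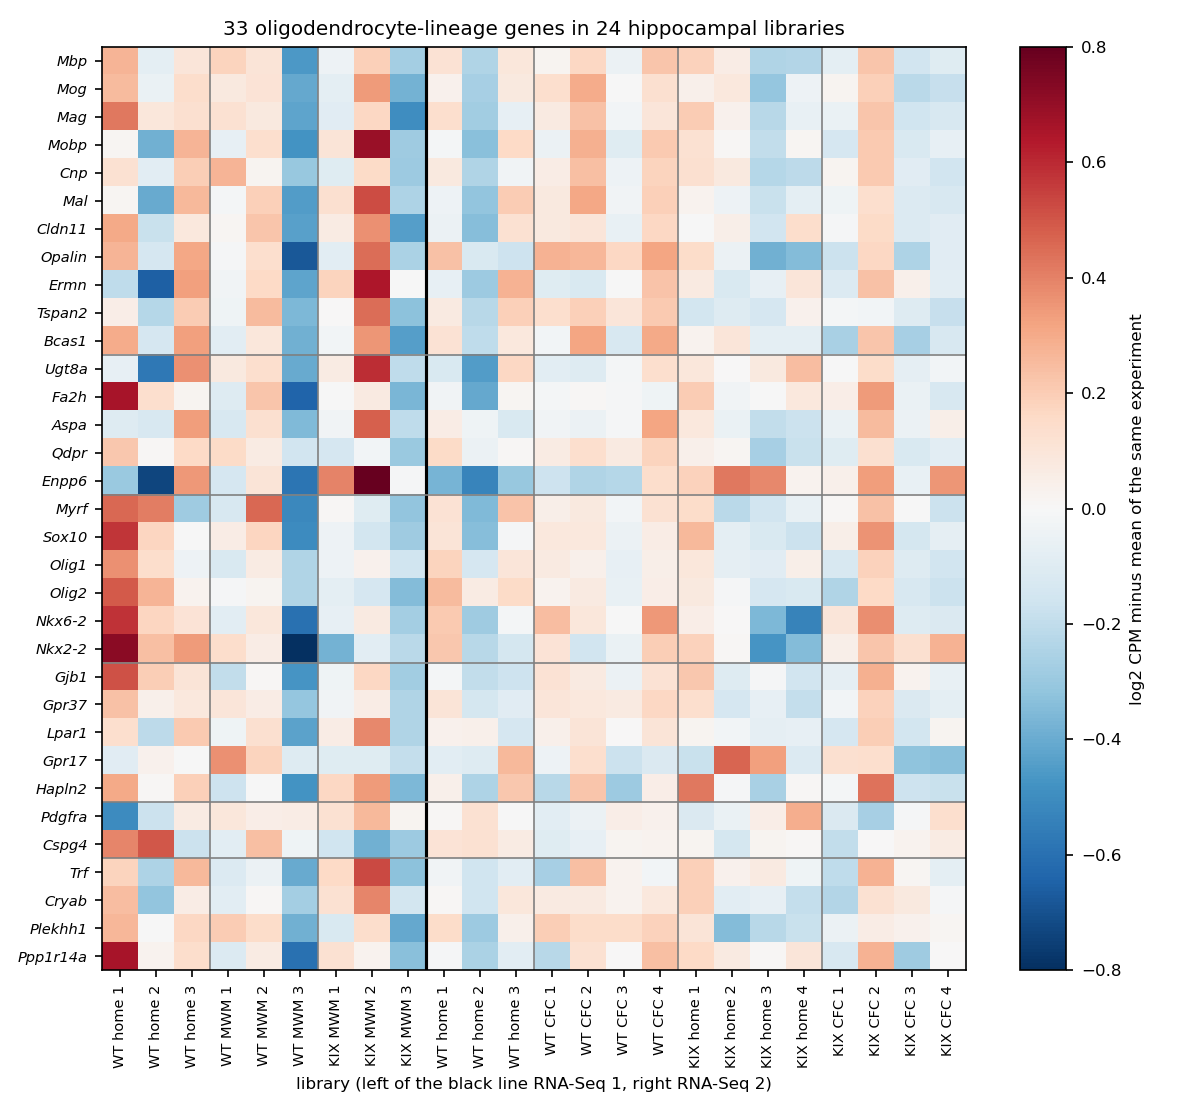
Heat map of the 33 genes (rows, by role) in the 24 libraries (columns, RNA-Seq 1 left and RNA-Seq 2 right of the black line), coloured by log2 CPM minus the mean of the same experiment. Columns change colour as a whole for most genes, with WT MWM replicate 3 and CBP KIX/KIX MWM replicate 3 lowest, while *Pdgfra*, *Cspg4* and *Gpr17* run separately.

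**Figure D3:**
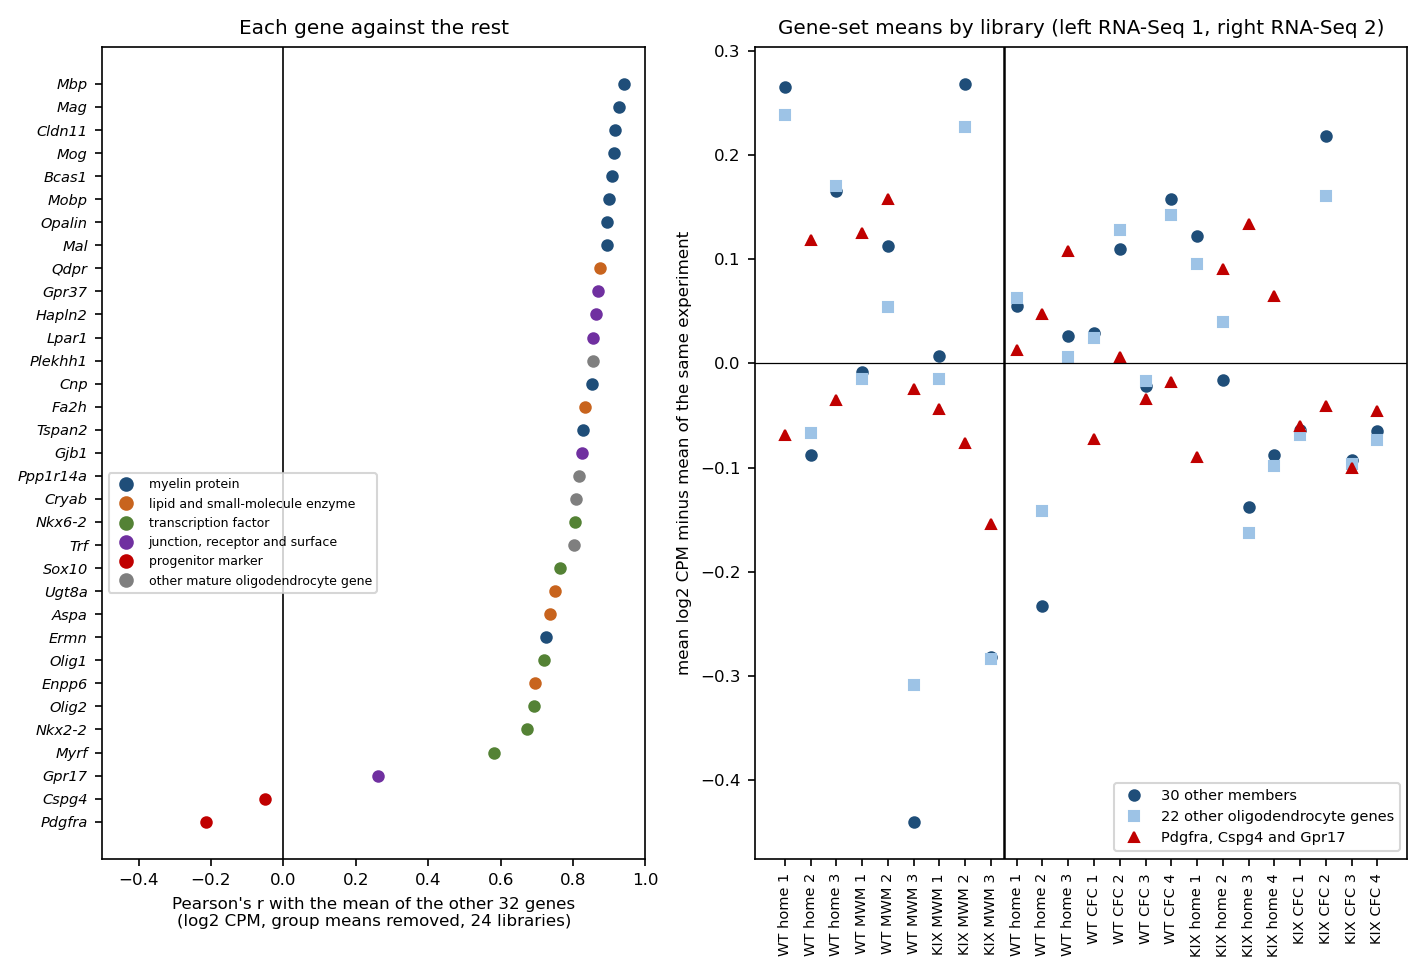
Left, Pearson's r of each gene with the mean of the other 32 over 24 libraries after removing group means, coloured by role, from 0.94 for *Mbp* to -0.21 for *Pdgfra*. Right, mean log2 CPM by library minus that of the same experiment for the 30 members other than *Pdgfra*, *Cspg4* and *Gpr17*, for 22 other oligodendrocyte genes and for those 3 genes. The first 2 sets lie close to each other and the third does not follow them.

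Trained CBP KIX/KIX and WT mice were set against each other to ask which RNAs depend on the KIX domain after learning, over MWM and CFC together (7 mice of each genotype). Of the 33 genes 1 was higher and 1 lower when edgeR's quasi-likelihood p was adjusted by Benjamini-Hochberg over 20496 genes with 0.05 as threshold, *Enpp6* and *Qdpr*. Over all genes 3.02% were called, 1.25% higher and 1.77% lower. The 33 genes as a whole were not shifted, with 14 fold changes above 0 and 19 below and a median log2 fold change of -0.02, against 47.9% above 0 and a median of -0.01 over all genes. Of the 11 myelin proteins 2 had fold changes above 0 and 9 below, with a median of -0.09, and none passed the test (-0.06, SE 0.07, for *Mbp*). At an unadjusted p under 0.05 there were 7 members, with 18.8% of all genes.

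*Enpp6* had 4.77, 5.63 and 3.48 CPM in the 3 WT MWM mice and 6.92, 9.94 and 5.20 CPM in the 3 CBP KIX/KIX MWM mice. In RNA-Seq 2 it had 8.27, 7.84, 7.92 and 10.2 CPM in the 4 WT CFC mice and 9.54, 11.7, 8.92 and 11.9 CPM in the 4 CBP KIX/KIX CFC mice. All 7 trained CBP KIX/KIX mice lay above the WT mean of their experiment, and the genotypes overlapped in both, through CBP KIX/KIX MWM replicate 3 and WT CFC replicate 4. The log2 fold change was 0.45 (SE 0.11, adjusted p = 0.0464 in edgeR).

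*Qdpr*, dihydropteridine reductase, which recycles tetrahydrobiopterin and is abundant in oligodendrocytes, had 93.5, 88.0 and 75.5 CPM in WT MWM and 76.7, 82.9 and 68.4 CPM in CBP KIX/KIX MWM mice. After CFC it had 113, 118, 113 and 122 CPM in WT and 101, 118, 98.9 and 102 CPM in CBP KIX/KIX mice. Of the 7 trained CBP KIX/KIX mice 6 lay below the WT mean of their experiment, the exception being CFC replicate 2. The log2 fold change was -0.16 (SE 0.04, adjusted p = 0.0419 in edgeR). An exon of *Qdpr* overlaps the opposite-strand gene *Gm42413*, and the strand setting of the counting is not given in the sources used here.

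Both calls depended on the factors and on single libraries. Without factors the fold changes were 0.46 (adjusted p = 0.378) for *Enpp6* and -0.16 (adjusted p = 0.465) for *Qdpr*, and 0 members were called, with 0.0195% of all genes. The *Enpp6* call was lost without WT MWM replicate 3 (adjusted p = 0.0587), CBP KIX/KIX MWM replicate 1 (0.0804) or 2 (0.0921), WT CFC replicate 1 (0.0622) or 3 (0.0660), or CBP KIX/KIX CFC replicate 4 (0.0816). The *Qdpr* call was lost without CBP KIX/KIX MWM replicate 1 (0.0724) or 3 (0.0942), WT CFC replicate 1 (0.0542), 2 (0.0514), 3 (0.0521) or 4 (0.0541), or CBP KIX/KIX CFC replicate 3 (0.0866) or 4 (0.0719). The direction of both held in all 44 alternatives tried.

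In homecage mice, which ask whether the genotypes differ without training, *Enpp6* again stood out among the 33 genes. It had 7.16, 6.40 and 7.50 CPM in the 3 WT and 10.6, 12.5, 12.1 and 9.48 CPM in the 4 CBP KIX/KIX mice, with no overlap. The log2 fold change was 0.68 (SE 0.12, adjusted p = 0.329 in edgeR, 0.00176 in DESeq2), so that the call depended on the test. By edgeR 0 of the 33 genes passed at an adjusted p under 0.05, with 0.0107% of all genes, 2 at an unadjusted p under 0.05, with 6.12% of all genes, and by DESeq2 1 passed, with 0.316% of all genes.

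*Olig2* was the other member of low p in homecage mice, with 26.5, 23.2 and 24.7 CPM in WT and 23.5, 22.1, 20.2 and 20.4 CPM in CBP KIX/KIX mice, where replicate 1 overlapped the WT range (log2 fold change -0.20, SE 0.08, adjusted p = 0.798 in edgeR). *Ppp1r14a*, an inhibitor of myosin phosphatase, had 11.8, 9.91 and 11.2 CPM in WT and 13.2, 12.4, 11.9 and 12.7 CPM in CBP KIX/KIX mice with no overlap (0.20, SE 0.09, adjusted p = 0.798). Without overlap there were 2 members higher (*Enpp6* and *Ppp1r14a*) and 1 lower (*Cspg4*), with 3.43% and 3.5% of all genes. Of the 33 fold changes 15 were above 0 and 18 below, with a median of -0.01, and 49.3% of all genes were above 0.

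**Figure D4:**
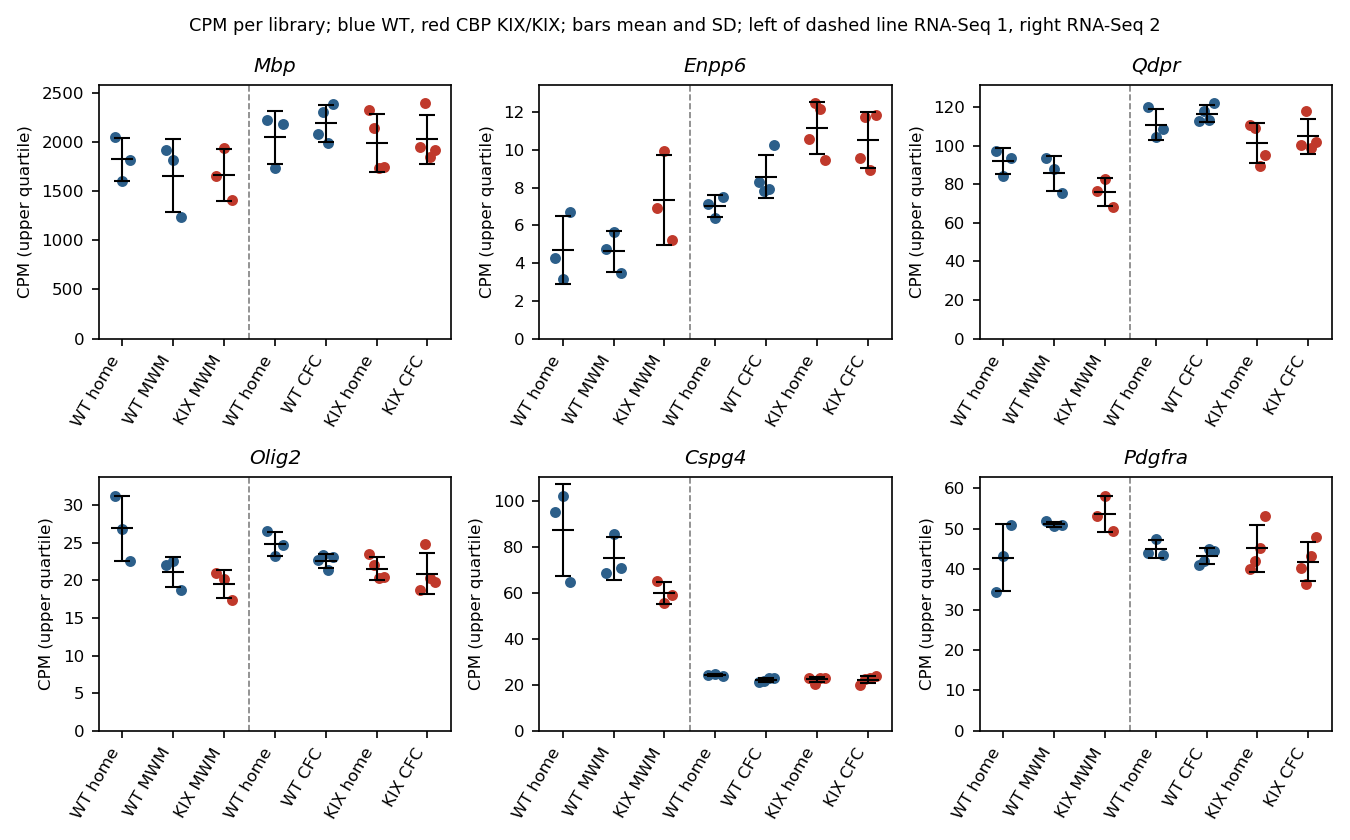
CPM after upper-quartile normalization of *Mbp*, *Enpp6*, *Qdpr*, *Olig2*, *Cspg4* and *Pdgfra* in each library (points, WT blue and CBP KIX/KIX red) with group mean and SD (bars), RNA-Seq 1 left and RNA-Seq 2 right of the dashed line, each axis from 0. The red points of *Enpp6* lie at 5.20 to 12.5 CPM and exceed the blue mean of their set in 11 of 11 mice, and *Cspg4* is lower throughout RNA-Seq 2.

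Over the 3 sets of mice (MWM, CFC and homecage) *Enpp6* exceeded the WT mean of its set in 11 of 11 CBP KIX/KIX mice. *Bcas1*, the other gene named above for the newly formed stage, did so in 5 of 11. Its mean in CBP KIX/KIX against WT mice was 69.4 against 64.1 CPM after MWM, 95.1 against 111 after CFC and 101.1 against 101.9 in homecage mice. The 3 sets share no mice, but the 7 trained ones are those of the comparison that called *Enpp6*. Only the 4 homecage mice had no part in that call. The share of all genes with 11 of 11 was not counted. In a fit of all 3 sets with the set as a covariate and no factors, which was added after the values were seen, *Enpp6* had a log2 fold change of 0.53 (SE 0.11, adjusted p = 0.0548 in edgeR), just outside the threshold, and 0 members were called, with 0.121% of all genes. In that fit 4 members were under an unadjusted p of 0.05, *Enpp6* above 0 and *Qdpr*, *Cspg4* and *Olig2* below, with 9.93% of all genes.

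*Enpp6* was also set against most other members in each library, as its log2 CPM minus the mean of the 29 members other than itself, *Pdgfra*, *Cspg4* and *Gpr17*. These 29 include *Bcas1*, *Nkx2-2*, *Sox10*, *Olig1* and *Olig2*, so that the measure does not set newly formed against mature cells alone. This measure was chosen after its values were seen and has no test. It was -3.37 ± 0.08 (SD, n = 3) in WT MWM and -2.82 ± 0.20 (n = 3) in CBP KIX/KIX MWM mice, -2.69 ± 0.14 (n = 4) in WT CFC and -2.32 ± 0.18 (n = 4) in CBP KIX/KIX CFC mice, and -2.86 ± 0.07 (n = 3) in WT and -2.20 ± 0.24 (n = 4) in CBP KIX/KIX homecage mice. The genotypes did not overlap in any of the 3 sets. Of all 22408 genes 1, *Enpp6* itself, was higher in this way in all 3 sets, or 0.00446%, and 0.0179% were lower. The subtraction was chosen for *Enpp6*, so that its place among all genes cannot show how unusual it is. As CPM, without the subtraction, 0.0179% of all genes were higher and 0.0759% lower with no overlap in all 3 sets, and 0 members were among them.

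Of the 33 genes 6 had a fold change above 0 in each of the 3 sets (*Ermn*, *Ugt8a*, *Fa2h*, *Enpp6*, *Hapln2* and *Trf*), with 15.8% of all genes. Another 5 had one below 0 in each (*Qdpr*, *Myrf*, *Olig2*, *Gpr37* and *Plekhh1*), with 15.3% of all genes, and 22 were mixed, with 68.8% of all genes. The shares of the members were thus near those of all genes.

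**Figure D5:**
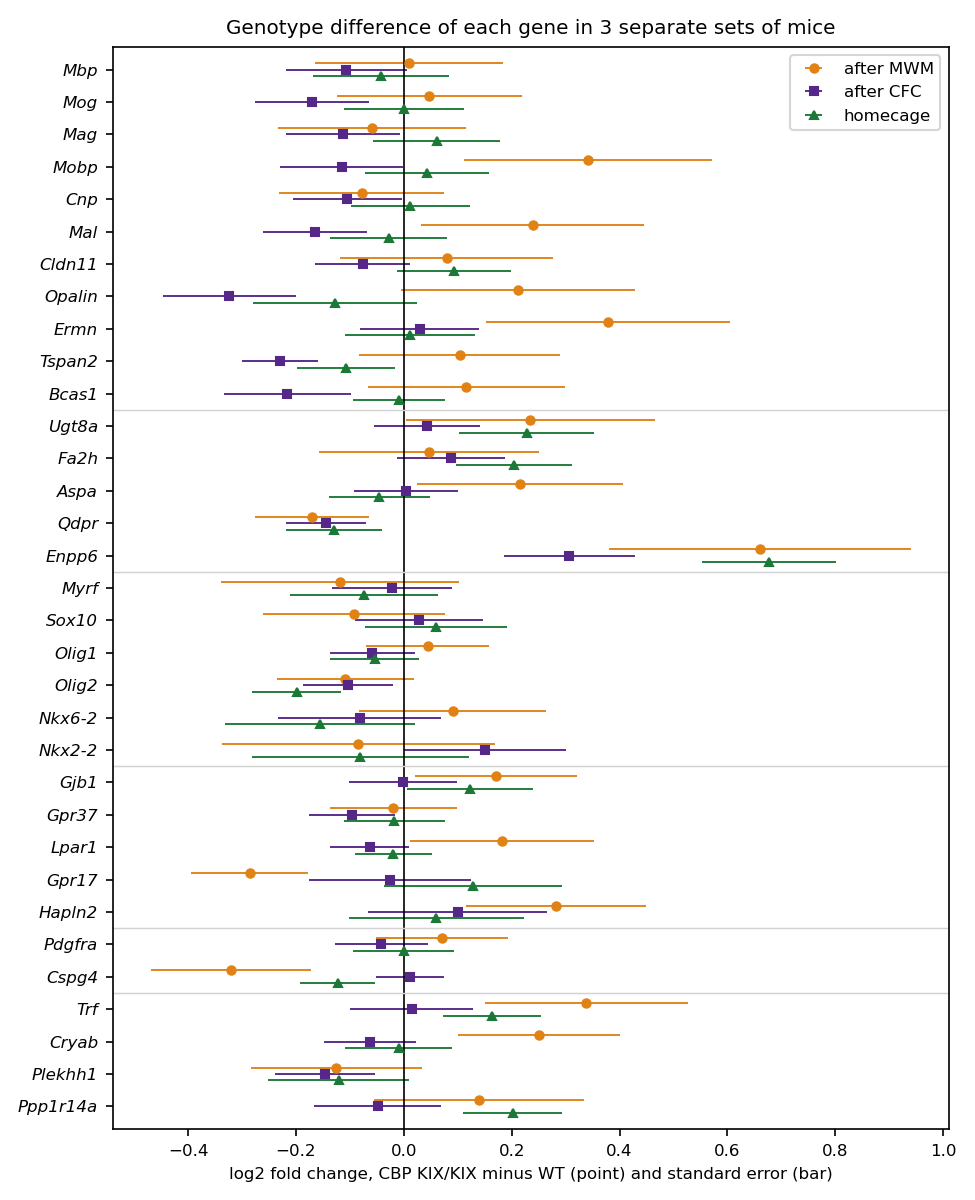
log2 fold change of CBP KIX/KIX minus WT mice (points) with standard error (bars) for each of the 33 genes, grouped by role, in the MWM, CFC and homecage sets. *Enpp6* is to the right of 0 in all 3 (0.66, 0.31 and 0.68), and 8 of the 11 myelin proteins lie above 0 in MWM and below 0 in CFC.

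Taken within MWM alone, 22 of the 33 fold changes of CBP KIX/KIX over WT mice were above 0, with a median of 0.08, against 45.9% of all genes above 0 and a median of -0.02 over all genes, and 9 of the 11 myelin proteins were above 0. This lean rested on single libraries. Without WT MWM replicate 3 it was 12 of the 33 genes and 3 of the 11 myelin proteins that were above 0, with a median of -0.04, and without CBP KIX/KIX MWM replicate 2 also 12 and 3, with a median of -0.04, while without WT MWM replicate 2 or CBP KIX/KIX MWM replicate 3 the median was 0.23 or 0.20. None of the 33 passed in edgeR, where 0 of 22276 genes were called (0%), and 3 members were under an unadjusted p of 0.05, with 5.77% of all genes, and DESeq2 called 0 members. The lowest p were those of *Gpr17*, *Enpp6* and *Cspg4*. *Gpr17* had 75.9, 66.6 and 54.8 CPM in WT and 55.0, 54.9 and 51.6 CPM in CBP KIX/KIX mice, where WT replicate 3 overlapped (-0.29, SE 0.11, adjusted p = 0.813). *Enpp6*, with the values given above, had 0.66 (SE 0.28, adjusted p = 0.813). *Cspg4* had 68.6, 86.0 and 71.1 CPM in WT and 65.2, 55.7 and 59.4 CPM in CBP KIX/KIX mice with no overlap (-0.32, SE 0.15, adjusted p = 0.813), and was the 1 member without overlap, with 9.01% of all genes lower and 8.18% higher in this way.

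Within CFC alone the fold changes of CBP KIX/KIX over WT mice leaned the other way, 10 above 0 and 23 below, with a median of -0.06 against 0.01 over all genes, and 10 of the 11 myelin proteins were below 0. With single libraries left out 10 to 11 of the 11 were below 0 and the median of the 33 lay between -0.15 (without CBP KIX/KIX CFC replicate 2) and -0.03 (without CBP KIX/KIX CFC replicate 1). Again 0 of the 33 passed in edgeR, with 0.0106% of all genes, and 3 members were under an unadjusted p of 0.05, with 2.34% of all genes, and DESeq2 called 0 members. *Tspan2*, a tetraspanin of early myelin, had 109.7, 114, 107 and 115 CPM in WT and 99.1, 98.4, 93.3 and 88.0 CPM in CBP KIX/KIX mice with no overlap (-0.23, SE 0.07). *Opalin*, a membrane protein of the paranodal loop, had 27.6, 27.4, 25.6 and 28.3 CPM in WT and 20.2, 25.6, 19.2 and 21.4 CPM in CBP KIX/KIX mice, of which replicate 2 lay at the lowest WT mouse, overlapping it on the scale of the fit (-0.32, SE 0.12). *Enpp6* had 0.31 (SE 0.12). Without overlap 2 members were lower, *Tspan2* and *Plekhh1*, with 1.11% of all genes, and 0 higher, with 1.39%. Of all genes 53.4% had a fold change above 0.

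The difference between these genotype effects was tested as an interaction with the experiment. Of the 33 genes 0 passed in edgeR, where 0 of 21489 genes were called (0%), with 3 members under an unadjusted p of 0.05 and 6.46% of all genes, and DESeq2 called 0 members. All 11 myelin proteins had a lower genotype effect in CFC than in MWM, with a median difference of -0.34 on the log2 scale, and 26 of the 33 genes were on that side, while 51.1% of all genes were above 0. Without WT MWM replicate 3 or without CBP KIX/KIX MWM replicate 2, 7 of the 11 myelin proteins and 18 of the 33 genes were on that side. The largest was that of *Opalin*, -0.54 (SE 0.25, adjusted p = 0.755). *Cspg4* had 0.32 (SE 0.12, adjusted p = 0.755) and *Cryab* -0.32 (SE 0.15, adjusted p = 0.755). The myelin genes of a library move together, as given above, and replicate 3 of the WT MWM mice was the library of lowest content.

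The comparison of learning with homecage in WT mice asked which RNAs training changes, over MWM and CFC together (7 trained and 6 homecage mice). *Olig2*, a basic helix-loop-helix factor needed from progenitor to mature cell, was the 1 member that passed, and it fell, with 1.02% of all genes called, 0.426% higher and 0.598% lower. It had 31.3, 26.8 and 22.6 CPM in homecage and 22.0, 22.5 and 18.8 CPM in MWM mice. In RNA-Seq 2 it had 26.5, 23.2 and 24.7 CPM in homecage and 22.6, 23.3, 21.3 and 23.1 CPM in CFC mice. All 7 trained mice lay below the homecage mean of their experiment, with no overlap in RNA-Seq 1, while in RNA-Seq 2 CFC replicate 2 reached the lowest homecage mouse. The log2 fold change was -0.23 (SE 0.05, adjusted p = 0.0431 in edgeR).

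All 6 transcription factors, *Olig2* included, had fold changes below 0, with a median of -0.14, against 43% of all genes above 0 and a median of -0.02 over all genes. Within MWM alone all 6 were below 0, with a median of -0.34, while within CFC alone 4 were above 0 and 2, *Olig1* and *Olig2*, below, with a median of 0.05. In the comparison over both tasks *Olig1* had -0.14 (SE 0.05, adjusted p = 0.145), and *Cspg4* had -0.16 (SE 0.06, adjusted p = 0.164), with all 7 trained mice below the homecage mean. The myelin proteins had 7 fold changes above 0 and 4 below, with a median of 0.02, and over the 33 genes the median was -0.02. At an unadjusted p under 0.05 there were 3 members, *Olig2*, *Olig1* and *Cspg4*, all lower, with 17.5% of all genes. Genes of the choroid plexus were higher in the trained WT mice, by a median of 1.5 on the log2 scale over 9 genes of which 2 passed, and their part in the result was not tested.

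The *Olig2* call depended on the factors and on single libraries. Without factors it had -0.24 (adjusted p = 0.705), and 0 members were called, with 0.0431% of all genes. The call was lost without WT homecage replicate 1 (adjusted p = 0.309) or 2 (0.0881) of RNA-Seq 1, WT MWM replicate 2 (0.0584) or 3 (0.133), WT homecage replicate 1 of RNA-Seq 2 (0.0896), or WT CFC replicate 3 (0.0803) or 4 (0.0711). It was negative in all 21 alternatives tried.

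Within MWM alone, 30 of the 33 fold changes of trained over homecage WT mice were below 0, with a median of -0.17, against 39% of all genes above 0 and a median of -0.07 over all genes. Without WT MWM replicate 3 it was 21 of 33 below 0, with a median of -0.05. Of the 33, 0 passed in edgeR, with 0.0135% of all genes, 7 were lower at an unadjusted p under 0.05, with 8.87% of all genes lower and 10.9% either way, and DESeq2 called 0 members. *Gjb1* had 27.7, 22.3 and 20.9 CPM in homecage and 17.0, 19.5 and 14.0 CPM in MWM mice (-0.49, SE 0.15, adjusted p = 0.306). *Nkx6-2*, a homeobox factor of the lineage, had 22.0, 16.6 and 15.9 CPM in homecage and 13.9, 15.7 and 9.71 CPM in MWM mice (-0.47, SE 0.17, adjusted p = 0.359). *Olig2* had -0.35 (SE 0.13, adjusted p = 0.353). Without overlap 5 members were lower, *Olig2*, *Nkx6-2*, *Nkx2-2*, *Gjb1* and *Hapln2*, with 9.71% of all genes, and 0 higher, with 3.72%.

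A single library moved this result. Without WT homecage replicate 3 of RNA-Seq 1, 5 members passed, *Olig1*, *Olig2*, *Gjb1*, *Pdgfra* and *Cspg4*, and so did 2418 of all genes against 3 with that library. That library was also far from its group over all genes. Its chi-square per gene was 91.4 against replicate 1 and 80.6 against replicate 2, while replicates 1 and 2 had 16.2 between them. Genes of the ependyma had a median fold change of -0.60 and genes of thalamus and habenula of -0.58 in the same comparison, and their part in the result was not tested.

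Within CFC alone the fold changes of trained over homecage WT mice were above 0 for 27 of the 33 genes, with a median of 0.12 against -0.01 over all genes, of which 47% were above 0. All 11 myelin proteins and all 5 enzymes were above 0 and both progenitor markers below. Without WT homecage replicate 2 of RNA-Seq 2 the median was 0.03 and 20 of the 33 genes were above 0. None passed: 0 of the 33 in edgeR and 0 of 18851 genes (0%), 0 members at an unadjusted p under 0.05 against 2.39% of all genes, and 0 in DESeq2. *Enpp6*, with the values given above, had 0.28 (SE 0.13) and no overlap, and *Cspg4*, with 24.5, 24.7 and 23.8 CPM in homecage and 21.3, 21.7, 23.0 and 23.2 CPM in CFC mice, had -0.13 (SE 0.07) and no overlap. *Plekhh1* had 34.7, 25.7 and 32.2 CPM in homecage and 36.1, 34.7, 34.8 and 35.7 CPM in CFC mice (0.19, SE 0.10). Without overlap 2 members were higher (*Enpp6* and *Plekhh1*) and 2 lower (*Olig2* and *Cspg4*), with 2.55% and 2.79% of all genes on the scale of that fit. On the CPM scale over all 24 libraries, used for the values printed here, the ranges of *Plekhh1* and *Olig2* overlapped slightly.

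In CBP KIX/KIX mice, CFC left the 33 genes near their homecage levels, with 20 fold changes above 0 and 13 below and a median of 0.02, while 52.3% of all genes were above 0. Without CBP KIX/KIX CFC replicate 2 it was 5 that were above 0, with a median of -0.05. None passed in edgeR, where 0 of 18851 genes were called (0%), 0 members were under an unadjusted p of 0.05 against 13% of all genes, DESeq2 called 0 members, and 0 members were without overlap, with 2.5% of all genes above and 2.41% below. The lowest p were those of *Nkx2-2* (0.28, SE 0.15), with 3.80, 3.36, 2.39 and 2.61 CPM in homecage and 3.45, 3.90, 3.66 and 4.06 CPM after CFC, *Plekhh1* (0.17, SE 0.09) and *Nkx6-2* (0.26, SE 0.15). The interaction of genotype and CFC, which tests whether training changed the genotypes unequally, passed for 0 of the 33 genes in edgeR and for 0 of all 18851 genes (0%), with 0 members and 4.79% of all genes under an unadjusted p of 0.05 and 0 members in DESeq2. Of the 33 genes 8 were above 0 and 25 below, with a median of -0.08, and of all genes 52.5% above. Without WT homecage replicate 2 of RNA-Seq 2 it was 15 above and 18 below, with a median of -0.02. Without CBP KIX/KIX homecage replicate 1 it was 14 and 19, with a median of -0.04. The largest interaction was that of *Enpp6*, -0.37 (SE 0.18, adjusted p = 0.950 in edgeR), with a genotype difference of 0.68 in homecage and 0.31 after CFC in the single comparisons.

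Related genes from fixed lists were counted in the same comparisons. Of 22 other oligodendrocyte genes 1 was higher in CBP KIX/KIX mice after learning, *Anln* (log2 fold change 0.37, SE 0.08, adjusted p = 0.0219), a scaffold of the myelin septin cytoskeleton, and 0 were lower. Of 7 other progenitor genes 1 was lower, *Neu4* (-0.27, SE 0.06, adjusted p = 0.0212), a sialidase, and 0 were higher. Over all genes 1.25% were called higher and 1.77% lower, and without factors neither passed, with an adjusted p of 0.389 for *Anln* and 0.277 for *Neu4* in edgeR. In homecage mice neither passed, with 0.06 (SE 0.16) for *Anln* and 0.11 (SE 0.11) for *Neu4*.

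Genes of sterol synthesis, which supply myelin among other membranes, gave 1 lower of 13 between genotypes after learning, with 1.77% of all genes lower. This was *Insig1* (-0.18, SE 0.04, adjusted p = 0.0302 in edgeR), which did not pass without factors (adjusted p = 0.277). In homecage mice all 13 had fold changes above 0, against 49.3% of all genes, with a median of 0.27, and none passed the test at an adjusted p under 0.05 in edgeR. Their mean log2 CPM, set against that of RNA-Seq 2, was 0.43 and 0.41 in CBP KIX/KIX homecage replicates 3 and 4, but -0.09 and -0.20 in replicates 1 and 2, within the WT homecage range of -0.22 to -0.06. Astrocyte genes were also highest among homecage mice in those replicates 3 and 4, with 0.20 and 0.39, and their part in the result was not tested. The same replicates 3 and 4 held fewer counts in total than replicates 1 and 2, as given above. Without replicate 3 the median of the 13 was 0.13, and without replicate 4 it was 0.17. These genes are made by neurons and astrocytes as well, and their mean had r = -0.34 with that of the 33 genes over the 24 libraries.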

How the data were processed

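RNA of the dorsal hippocampus was sequenced in 24 libraries, 9 in RNA-Seq 1 and 15 in RNA-Seq 2. The authors aligned the reads to mm10 with STAR and counted them per gene with featureCounts 1.4.4 in the bcbio pipeline, with SAMtools 1.6 named in the submitters' processing notes, and deposited raw counts with no scaling. The annotation release and the strand setting are not given in the sources used here. Of 51826 identifiers 51633 were matched to GENCODE M21, from which symbols, exon lengths and GC content were taken, all 33 members among them. Promoter sequences are RefSeq's on GRCm38.p6.

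Counts were scaled to their upper quartile and, after filterByExpr, fitted by edgeR 4.0.16 in R 4.3.3 with its quasi-likelihood functions glmQLFit and glmQLFTest. Benjamini-Hochberg adjustment ran over all genes tested, with 0.05 as threshold. The standard errors (SE) given were derived as the absolute log2 fold change over the square root of the quasi-likelihood F. For genotype after learning the experiment entered as a batch with 4 RUVr factors, and for learning in WT mice the batch with 3, as in the study, while the other comparisons had no factors. RUVr was a separate implementation from the deviance residuals, and the study's GC normalization was tried as an alternative with 10 bins. Comparisons within one experiment were fitted on all of its groups, except that of homecage mice, which was fitted on its 2 groups. CPM are after upper-quartile normalization over 24 libraries and 22408 genes, and 2 was the prior count of log2 CPM. The comparisons were run on simulated counts with known changes of 1 on the log2 scale, of which 60 to 81.5% were recovered. In each comparison 200 genes were changed, and 7 to 12 unchanged genes were called as well. Left out of this were CFC in CBP KIX/KIX mice, both interactions and the fit with homecage libraries added. The simulated counts held no unwanted variation, so that they do not test its removal, and smaller changes were not simulated.

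The 33 members and the comparison lists were chosen with earlier results of these data known. In each comparison, values of every library were given for members that passed, or else for the 3 of lowest p. In addition the member of highest level per kb in each role and the 10 genes most like the mean of the members were named. Library totals set the precision, with a floor of 3 counts that covers counting error only. Each library was counted as 1 mouse. The labels name no litter or extraction batch, so that p-values measure the spread between these libraries only. Alternatives were no factors and 2 factors, a block by replicate number, DESeq2 1.42.0, TMM normalization, no filter on low counts, GC normalization, all groups of RNA-Seq 2 in one fit and leaving out each library in turn. The fit with homecage libraries added was chosen after seeing the data. Some results on genes of the comparison lists are not reported here.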

Additional observations from a re-analysis of the deposited data

Results flagged for a closer look

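In groups of 4 mice, a library was singled out where its gap to the nearest of the others was large against the range of the group, by Dixon's 95% criterion. Over 99 such groups of member and condition 4 were singled out, and chance alone gives about 1 in 20. *Aspa* had 23.3053 CPM in WT CFC replicate 4, above the others of its group. *Qdpr* had 118.021 CPM in CBP KIX/KIX CFC replicate 2, which was also the one trained CBP KIX/KIX mouse above the WT mean of its experiment. *Olig1* had 117.328 CPM in the same library, the one of highest mean level of the 33 genes in RNA-Seq 2. *Cspg4* had 20.6168 CPM in CBP KIX/KIX homecage replicate 2, below the others of its group.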

How the results depend on the processing

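With all 4 factors of unwanted variation, 2 members were called between genotypes after learning. The count was 0 without factors, with 2 factors, with GC normalization and in the fit with homecage libraries added, of which leaving out single libraries gave 0 to 1, and leaving out single libraries from the comparison itself gave 0 to 4. With learning in WT mice the count of 1 became 0 without factors, with 2 factors, with GC normalization, with TMM normalization and with no filter on low counts, and lay between 0 and 3 when single libraries were left out. In homecage mice DESeq2 called 1 member, *Enpp6*, against 0. With MWM in WT mice, leaving out single libraries gave 0 to 5 members. The cause of these changes was not tested. Of 170 alternatives of the counts of members called 115 gave a count near the main one. The median fold change of the 33 genes moved by less than the spread between replicates in 170 of 170 but, being near 0, changed sign in 28, of which 13 were in the comparison of genotypes after learning, 4 in learning in WT mice, 6 in homecage mice, 2 in genotypes after MWM and 3 in CFC in CBP KIX/KIX mice. The fold change of *Enpp6* with MWM in WT mice was -0.04 and changed sign with TMM (0.00749827), DESeq2 (0.0294942) and no filter (0.00174216), and ranged over single libraries left out from -0.252722 to 0.323012 (0.323012 without WT homecage replicate 3 and 0.133465 without WT MWM replicate 3).

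Replicate numbers are shared between groups. With the replicate number as a block and no factors, 0 members were called between genotypes after learning and 0 with learning in WT mice. With the block and the factors the counts were 14 and 2. Samples of one number deviated together with a mean r of 0.171 in RNA-Seq 2 (16 of 21 pairs over 0.1) and -0.0191 in RNA-Seq 1 (3 of 9). The numbers thus do not pair the samples throughout, and the block changed no member call in the comparisons within one experiment. In RNA-Seq 2, 14 of 63 pairs of unlike number were also over 0.1, with r from -0.377 to 0.356. Total counts in RNA-Seq 2 split by replicate number, as given above, and this split entered no fit as a term of its own.

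Over all genes the calls between genotypes after learning numbered 618, and 4 without factors, 185 with 2 factors, 247 with GC normalization, 956 in DESeq2 and 320 with no filter, 8 with the block and no factors and 2734 with the block and the factors, and 221 to 1080 when single libraries were left out. For learning in WT mice they numbered 214, and 9, 107, 50, 830, 141, 12 and 887 in the same order. They ran from 36 to 2288 when single libraries were left out (2288 without WT homecage replicate 3 of RNA-Seq 1). In homecage mice they were 2, and 59 in DESeq2 and 0 to 7 when single libraries were left out. For CFC in CBP KIX/KIX mice they were 0, and 300 in DESeq2 and 0 to 999 when single libraries were left out (999 without CBP KIX/KIX homecage replicate 1). The median over the 33 genes of their mean CPM in WT CFC mice moved to 44.0644 CPM with TMM, and lay between 43.2388 and 44.2851 CPM when single libraries were left out, and that of CBP KIX/KIX homecage mice between 45.1276 and 48.09 CPM.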

Other observations

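The receptor *Pdgfra* ran opposite to the other members in RNA-Seq 2, where its r with the mean of the other 32 members was -0.67 over 15 libraries, against 0.09 over 9 libraries in RNA-Seq 1. Some transcription factors followed the mean of the other members more closely in RNA-Seq 2 than in RNA-Seq 1, with r of 0.89 against 0.59 for *Olig2*, 0.87 against 0.65 for *Olig1* and 0.82 against 0.48 for *Myrf*. *Tspan2* and *Lpar1*, the receptor for lysophosphatidic acid, had the opposite order, with 0.52 against 0.94 and 0.53 against 0.97. All libraries of an experiment share its library type and run, and these values have no test.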
